A study of Homo sapiens with 12 samples.

Results

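The 7 genes described here encode mitochondrial enzymes that make or remove 2-oxoglutarate: IDH3A, IDH3B, IDH3G, OGDH, DLST, GLUD1 and D2HGDH. They were taken by gene symbol from a table of 57820 genes, by a rule that uses no expression value. The table holds RNA sequencing of HL60, an established human myeloid leukaemia line, in 4 groups of 3 libraries. TFEB-Dox cells carried the vector pRRL-TFEBS211A-puro and received doxycycline, which switches on TFEB S211A. TFEB is known for activating genes of the lysosome, and the S211A change removes a phosphorylation site that holds it outside the nucleus. TFEB-Veh cells carried the same vector and received vehicle. EV-Dox cells carried the empty vector pRRL-EV-puro and received doxycycline, and EV-Veh cells carried the empty vector and received vehicle. All 4 groups were grown in RPMI-1640 with fetal bovine serum, and the replicates were independent experiments, per the series text. The doxycycline dose was 1 µg/ml for 48 h, which the labels' protocols list for every sample, vehicle samples included, so the treatment of each library was taken from its own treatment label. The labels do not say whether a line is 1 clone.

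2-Oxoglutarate sits where the tricarboxylic acid cycle meets amino acid metabolism, and it is the co-substrate of the TET enzymes and of many histone demethylases. In mitochondria it is made from isocitrate by the NAD-dependent isocitrate dehydrogenase, whose catalytic subunit is IDH3A and whose other subunits are IDH3B and IDH3G. It is also made from glutamate by the dehydrogenase GLUD1 and from D-2-hydroxyglutarate by the dehydrogenase D2HGDH, and it is used up by the 2-oxoglutarate dehydrogenase complex, in which OGDH is the decarboxylating subunit and DLST the succinyltransferase. D-2-Hydroxyglutarate is best known in myeloid leukaemia as the product of mutant IDH1 and IDH2.

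The libraries held between 4474007 reads (EV-Dox replicate 3) and 22488047 reads (EV-Veh replicate 2), and the 7 genes had from 73 reads (D2HGDH) to 4620 reads (GLUD1) in a single library. The deposited values are reads divided by 1 size factor per library, so that 1 read stood for 0.803 to 1.22 normalized reads. Normalized totals still ran from 4.01e+06 in EV-Dox replicate 3 to 2.23e+07 in EV-Veh replicate 2, the same libraries that held the fewest and the most reads. On the deposited scale the whole body of expressed genes shifted between groups, and the part of library depth in this shift was not tested. Over 7290 expressed genes (nuclear, averaging 200 or more normalized reads) the median log2 change was 0.73 in TFEB-Dox against TFEB-Veh, 1.38 in TFEB-Dox against EV-Dox, 0.06 in TFEB-Dox against EV-Veh and -1.29 in EV-Dox against EV-Veh. Changes are therefore given on the deposited scale and again after each library was divided by the median ratio of these expressed genes, here called the expressed-gene scale. That ratio ran from 0.313 in EV-Dox replicate 3 to 2.21 in EV-Veh replicate 2. Mitochondrially encoded genes took 15.96 ± 2.38% of reads in TFEB-Dox, 26.6 ± 2.82% in TFEB-Veh, 30.4 ± 3.70% in EV-Dox and 23.8 ± 2.77% in EV-Veh (SD, n = 3 each). TFEB itself was at 14470.4 to 22629 normalized reads in TFEB-Dox and at 79.8 to 196 in the 9 other libraries, so the TFEB-Dox labels fitted it. The 6 myeloid markers summed to 7466 to 10572 normalized reads in TFEB-Dox, 47579.5 to 92871 in TFEB-Veh, 4520 to 28267 in EV-Dox and 63683 to 210878 in EV-Veh, led by MPO, a granule enzyme of promyelocytes. MPO, PRTN3 and AZU1 were lower in every TFEB-Dox library than in any TFEB-Veh library. ELANE (1819 to 2932 in TFEB-Dox and 1580 to 3575 in TFEB-Veh), CTSG and CD33 overlapped between these groups. The 4 lymphoid, 3 erythroid and 3 epithelial markers summed to at most 125 in any library, and HBA1 was at 0 in TFEB-Dox replicate 1 and EV-Dox replicate 1. The part of the myeloid markers and of the mitochondrial share in the results below was not tested.

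Start sites with 250 bases before and 50 bases after them are shown for 3 members, from RefSeq on GRCh38.p14. IDH3A and D2HGDH were chosen because they differed in opposite directions between TFEB-Dox and each control on the expressed-gene scale, and IDH3B because it encodes the partner subunit of IDH3A. Capitals mark matches, on either strand, to 3 motifs: GGGGCGGGG (a GC box, as bound by Sp factors), GCGCANGCG (as bound by NRF1, a regulator of nuclear genes for mitochondria) and CCGGAAG (as bound by ETS factors). Each sequence reads 5′ to 3′ in the direction of the gene, over chr15:78149112-78149411 on the plus strand for IDH3A, chr20:2664167-2664466 on the minus strand for IDH3B and chr2:241734380-241734679 on the plus strand for D2HGDH.
IDH3A: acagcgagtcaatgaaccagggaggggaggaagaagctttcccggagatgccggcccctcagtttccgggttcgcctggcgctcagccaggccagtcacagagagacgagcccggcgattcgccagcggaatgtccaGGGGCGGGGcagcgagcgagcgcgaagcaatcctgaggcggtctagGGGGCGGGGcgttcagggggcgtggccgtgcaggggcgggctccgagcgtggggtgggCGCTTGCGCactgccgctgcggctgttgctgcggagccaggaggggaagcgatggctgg
IDH3B: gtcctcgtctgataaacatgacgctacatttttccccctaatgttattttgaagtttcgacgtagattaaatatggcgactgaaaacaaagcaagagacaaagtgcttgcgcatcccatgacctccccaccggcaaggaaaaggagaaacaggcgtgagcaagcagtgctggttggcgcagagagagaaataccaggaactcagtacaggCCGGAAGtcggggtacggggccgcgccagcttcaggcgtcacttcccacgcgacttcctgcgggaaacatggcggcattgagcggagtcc
D2HGDH: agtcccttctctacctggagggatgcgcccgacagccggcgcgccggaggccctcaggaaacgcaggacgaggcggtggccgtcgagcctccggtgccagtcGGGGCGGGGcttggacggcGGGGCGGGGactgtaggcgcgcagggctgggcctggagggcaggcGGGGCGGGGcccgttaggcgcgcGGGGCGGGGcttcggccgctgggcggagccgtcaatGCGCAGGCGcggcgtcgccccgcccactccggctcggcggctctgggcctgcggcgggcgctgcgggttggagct
IDH3A and D2HGDH shared the GC box (2 matches in IDH3A, 4 in D2HGDH) and the NRF1-type motif (1 match each), while IDH3B had 1 match to the ETS-type motif. Windows were found for 6 of the 7 members, OGDH being the other. GCGCANGCG was present in 4 of these 6 (D2HGDH, GLUD1, IDH3A, IDH3G) and in 7.52% of all 35116 windows of this length. CCGGAAG was present in 3 of 6 (DLST, IDH3B, IDH3G) and in 10.3% of all windows, and GGGGCGGGG in 2 of 6 and in 15.7%. CACGTG, the E-box core of the element that TFEB binds, was present in 0 of 6 and in 7.26% of all windows. A match describes letters only.

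All 7 members passed the filter of a mean of at least 10 normalized reads. In TFEB-Dox against TFEB-Veh, limma called 2 of the 7 higher (IDH3A and OGDH) and 0 lower on the deposited scale, at a Benjamini-Hochberg adjusted p under 0.05. Over all 23128 genes tested, 17.4% were called higher and 4.66% lower, and over the expressed genes 31.5% and 3.51%, so the members' share was close to that of expressed genes. DESeq2 and edgeR on recovered reads also called 0 members lower. At an unadjusted p under 0.05, 0 members were lower by limma and 1 by edgeR. After scaling on expressed genes limma called the same 2 higher, against 14.4% of all genes and 34.4% of expressed genes, and 1 lower (D2HGDH), against 20.7% and 33.2%. IDH3A and OGDH were called higher under each of 5 scalings. In these bulk samples a change in the share of cells that express a gene and a change in its RNA per cell cannot be told apart.

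**Figure D1:**
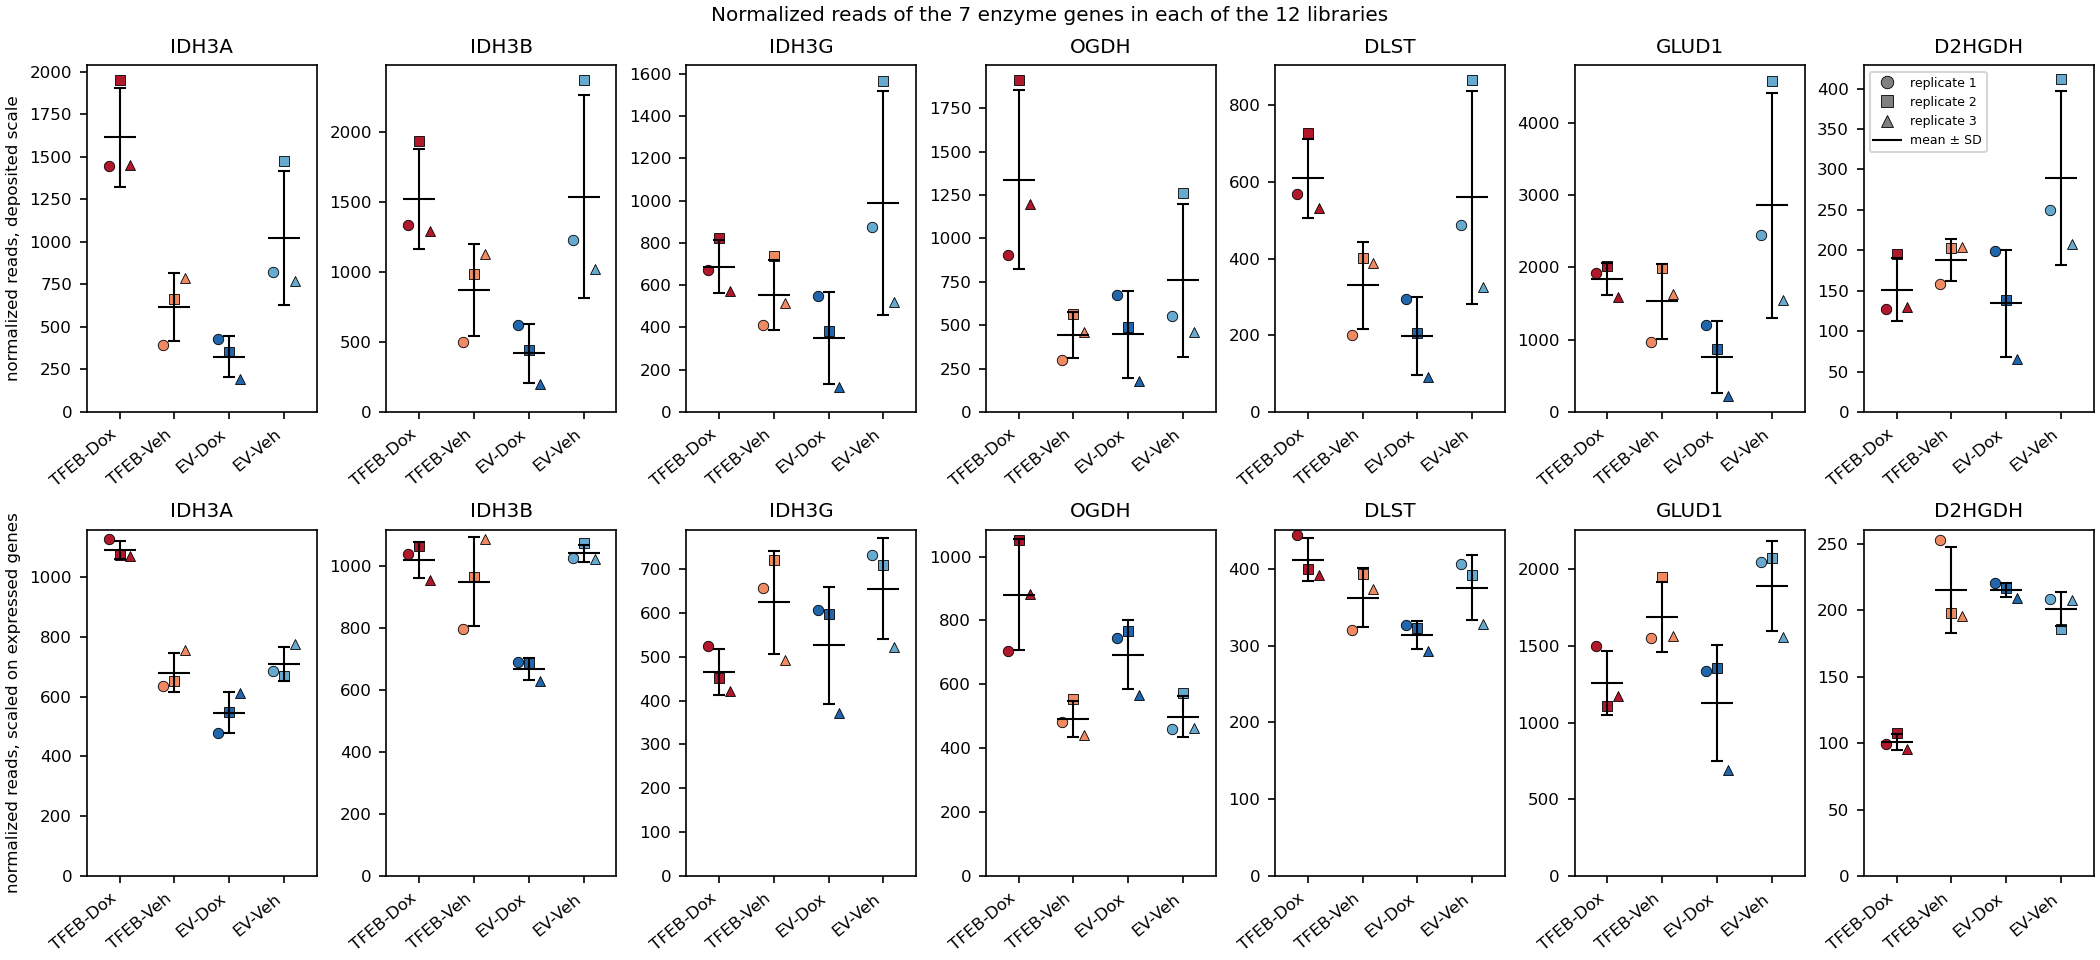
Normalized reads of the 7 members in each of the 12 libraries, by group, on the deposited scale (upper panels) and the expressed-gene scale (lower panels), with the mean and SD of each group (bars) and 1 symbol per replicate. On the lower scale IDH3A lies between 1069.8 and 1126 in TFEB-Dox and no higher than 775 in the other 9 libraries, and D2HGDH lies between 95.5 and 108 in TFEB-Dox and no lower than 186 elsewhere.

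IDH3A (ENSG00000166411.9), the catalytic subunit, rose with TFEB induction. It was at 1445, 1952 and 1452 normalized reads in TFEB-Dox and 396, 665 and 786 in TFEB-Veh on the deposited scale. It was at 431, 349.8 and 192 in EV-Dox and 822, 1479 and 772 in EV-Veh. TFEB-Dox lay above TFEB-Veh and EV-Dox without overlap, and overlapped EV-Veh through the high EV-Veh replicate 2. The log2 change against TFEB-Veh was 1.43 (SE 0.50, limma adjusted p = 0.0316), and against EV-Dox 2.38 (SE 0.50, limma adjusted p = 0.000191). Against EV-Veh it was 0.71 (SE 0.50) and did not pass (limma adjusted p = 0.376), although edgeR and DESeq2 called it higher. Scaled on expressed genes, the same libraries read 1126, 1074 and 1069.8 in TFEB-Dox, 635, 652 and 754 in TFEB-Veh, 478, 547 and 614 in EV-Dox and 686, 669 and 775 in EV-Veh. There TFEB-Dox stood above all 9 other libraries, and the log2 changes were 0.68 against TFEB-Veh, 1.00 against EV-Dox and 0.62 against EV-Veh (SE 0.12 each; limma adjusted p = 0.000317, 6.12e-06 and 0.000725). On the deposited scale the call against TFEB-Veh was lost without any 1 of TFEB-Dox replicates 1, 2 and 3, TFEB-Veh replicates 1 and 2 and EV-Dox replicate 2, with limma adjusted p up to 0.172. The same call on the expressed-gene scale stood without each of the 12 libraries in turn.

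IDH3B (ENSG00000101365.16), a structural and regulatory subunit of the same enzyme, separated TFEB-Dox from EV-Dox but not from the vehicle groups. It was at 1039.65, 1065 and 955 in TFEB-Dox, 798, 964 and 1086 in TFEB-Veh, 689, 687 and 628 in EV-Dox and 1027, 1073 and 1022 in EV-Veh on the expressed-gene scale. The EV-Dox libraries were the 3 lowest, and TFEB-Dox overlapped both vehicle groups. The log2 change of TFEB-Dox against EV-Dox was 0.61 (SE 0.12, limma adjusted p = 0.00071) on this scale and 1.98 (SE 0.53, limma adjusted p = 0.003) on the deposited scale, and it was called under each of 5 scalings. Against TFEB-Veh it was 0.11 (95% interval -0.15 to 0.37) on the expressed-gene scale and 0.86 (95% interval -0.20 to 1.93) on the deposited scale, and neither passed (limma adjusted p = 0.437 and 0.266).

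IDH3G (ENSG00000067829.14), the other regulatory subunit, was not called in TFEB-Dox against any control on either scale in the main limma fit. It was at 524, 452 and 421 in TFEB-Dox, 656, 721 and 493 in TFEB-Veh, 606, 598 and 373 in EV-Dox and 732, 709 and 523 in EV-Veh on the expressed-gene scale. Replicate 3 was the lowest library within each of the 4 groups. The log2 change against TFEB-Veh was -0.41 on this scale and 0.34 on the deposited scale (limma adjusted p = 0.114 and 0.692), so its sign followed the scaling. With the replicate number as a block, IDH3G was called lower on the expressed-gene scale against TFEB-Veh and EV-Veh (limma adjusted p = 0.0115 and 0.00356). Against EV-Dox it was called higher with the block on the deposited scale, with TMM scaling, or with a filter mean of at least 50 (limma adjusted p = 0.029, 0.0387 and 0.0469). Pairing of TFEB-Dox with the other groups was not shown. The 3 subunits of 1 enzyme thus had different profiles over the same 12 libraries.

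OGDH (ENSG00000105953.10), which decarboxylates 2-oxoglutarate, rose against TFEB-Veh. It was at 905, 1912 and 1199.85 normalized reads in TFEB-Dox and 300.4, 566 and 459.9 in TFEB-Veh on the deposited scale. It was at 673, 489.8 and 178 in EV-Dox and 550.2, 1264 and 463 in EV-Veh. TFEB-Dox lay above TFEB-Veh and EV-Dox without overlap, and the log2 changes were 1.58 and 1.71 (SE 0.52 each; limma adjusted p = 0.0242 and 0.00954). Scaled on expressed genes, OGDH was at 706, 1052 and 884 in TFEB-Dox, 481, 554 and 442 in TFEB-Veh, 746, 766 and 568 in EV-Dox and 460, 572 and 465 in EV-Veh. There TFEB-Dox exceeded both vehicle groups, by 0.83 against TFEB-Veh and 0.81 against EV-Veh (log2, SE 0.17 each, limma adjusted p = 0.000746 and 0.000861), while EV-Dox overlapped TFEB-Dox. The change against EV-Dox was 0.34 (SE 0.17, limma adjusted p = 0.0746), so the call in that comparison held on the deposited scale and not on the expressed-gene scale. On the deposited scale the call against TFEB-Veh was lost without TFEB-Dox replicate 2 or 3 or TFEB-Veh replicate 1 or 3 (limma adjusted p up to 0.161), and on the expressed-gene scale it stood without each library in turn.

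DLST (ENSG00000119689.10), the succinyltransferase that works next to OGDH in the complex, moved less. It was at 443, 400.2 and 392 in TFEB-Dox, 320.2, 394 and 374 in TFEB-Veh, 327, 323 and 292 in EV-Dox and 407, 392 and 328 in EV-Veh on the expressed-gene scale. TFEB-Dox lay above EV-Dox and overlapped both vehicle groups. The log2 change against EV-Dox was 0.39 (SE 0.14, limma adjusted p = 0.0217) on this scale, where it lost its call without TFEB-Dox replicate 1 or 2 or EV-Dox replicate 3 (limma adjusted p up to 0.0624), and 1.76 (SE 0.48, limma adjusted p = 0.00335) on the deposited scale. Against TFEB-Veh it was 0.19 on the expressed-gene scale and 0.94 on the deposited scale (limma adjusted p = 0.267 and 0.166). A fit of these 2 groups alone called it higher on the deposited scale (limma adjusted p = 0.0222).

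GLUD1 (ENSG00000148672.7), which links glutamate to 2-oxoglutarate, had no call that stood on both scales in TFEB-Dox. It was at 1496, 1108 and 1174 in TFEB-Dox, 1548, 1951 and 1565 in TFEB-Veh, 1336, 1355 and 694 in EV-Dox and 2046, 2073 and 1555 in EV-Veh on the expressed-gene scale. Every TFEB-Dox library lay below every TFEB-Veh and EV-Veh library there, and overlapped EV-Dox. The log2 change was -0.43 against TFEB-Veh (SE 0.22, limma adjusted p = 0.128) and -0.59 against EV-Veh (SE 0.22, limma adjusted p = 0.0483), and the second was lost without any 1 of 7 libraries. On the deposited scale the change was 0.32 against TFEB-Veh and -0.50 against EV-Veh, neither called, and 1.59 against EV-Dox (SE 0.58, limma adjusted p = 0.031). That last call was lost without EV-Dox replicate 3, with 0.84 (limma adjusted p = 0.218), and without any 1 of the 3 TFEB-Dox replicates (limma adjusted p from 0.0634 to 0.105). GLUD1 has near-identical copies in the genome, among them GLUD2, so its reads may have been split or lost in counting.

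D2HGDH (ENSG00000180902.12), which oxidizes D-2-hydroxyglutarate to 2-oxoglutarate, was the only one of the 7 members to be called lower in TFEB-Dox against each of the 3 controls on the expressed-gene scale. It was at 99.6, 108 and 95.5 in TFEB-Dox and at 253, 198 and 196 in TFEB-Veh on that scale. It was at 220.2, 216 and 209 in EV-Dox and at 208, 186 and 208 in EV-Veh. The 3 TFEB-Dox libraries were the lowest of the 12. TFEB-Veh overlapped both other control groups, and every EV-Dox library lay slightly above every EV-Veh library. All 3 comparisons share the TFEB-Dox libraries. The log2 changes were -1.08 against TFEB-Veh, -1.09 against EV-Dox and -0.98 against EV-Veh (SE 0.17 each; limma adjusted p = 7.04e-05, 6.31e-05 and 0.000165), and all 3 stood without each library in turn. On the deposited scale the values were 128, 196 and 129.6 in TFEB-Dox, 158, 202 and 204 in TFEB-Veh, 199, 138 and 65.5 in EV-Dox and 249, 412 and 207 in EV-Veh. There TFEB-Dox overlapped TFEB-Veh and EV-Dox, and every EV-Veh library lay above all 9 others. The log2 changes of -0.33, 0.28 and -0.90 were not called (limma adjusted p = 0.61, 0.612 and 0.118). Against EV-Veh, edgeR (-0.70, edgeR adjusted p = 0.0282) and DESeq2 (-0.85, DESeq2 adjusted p = 0.0347) called D2HGDH lower on recovered reads. Scaled to equal totals or equal upper quartiles, limma called it lower against each of the 3 controls. The call against TFEB-Veh and EV-Dox thus depended on the scaling. D2HGDH itself, with a mean of 191 normalized reads, did not reach the set of expressed genes. The median over all 23128 genes tested, most of them of low level, was, on the expressed-gene scale, -0.72 against TFEB-Veh, -1.25 against EV-Dox and -0.08 against EV-Veh, so D2HGDH stood clear of it in the last comparison and near it against EV-Dox. D2HGDH had the fewest reads of the 7, yet its values exceeded those of the 4 lymphoid markers, which lay between 7.64 and 53.7 normalized reads each.

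**Figure D2:**
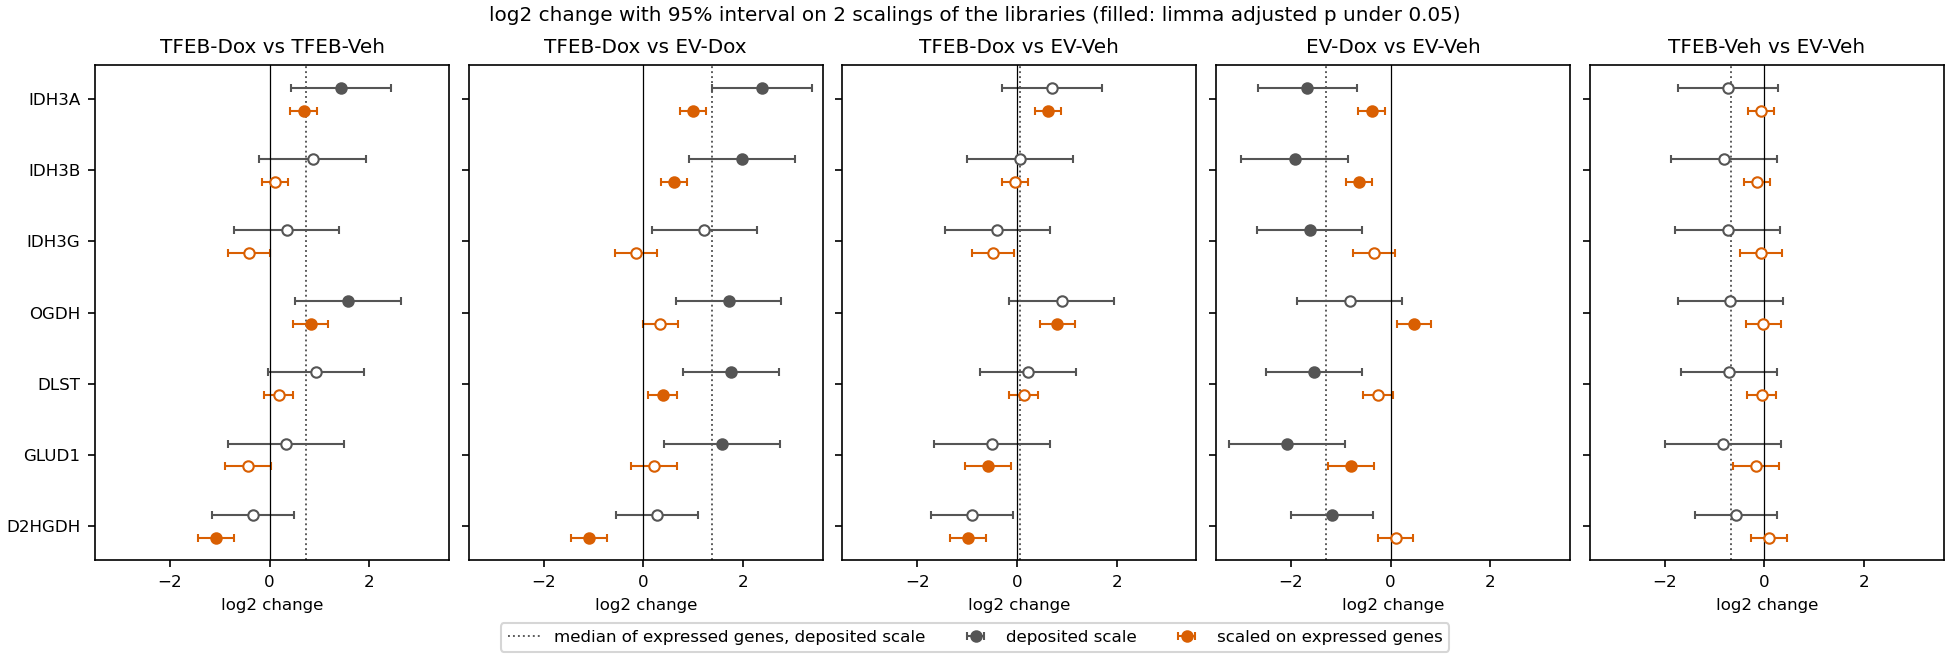
Log2 changes with 95% intervals of the 7 members in 5 comparisons, on the deposited scale (grey) and on the expressed-gene scale (orange), filled where called by limma, with the median of expressed genes on the deposited scale as a dotted line. Intervals are wide on the deposited scale (SE 0.40 to 0.58) and narrow on the expressed-gene scale, where IDH3A lies above 0 and D2HGDH below 0 in all 3 comparisons of TFEB-Dox.

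Doxycycline in the empty-vector line also moved members. In EV-Dox against EV-Veh limma called 6 of 7 lower on the deposited scale, all but OGDH, and 0 higher, against 23.3% of all genes called lower and 3.39% higher and against 51.2% of expressed genes called lower. The changes of these 6 ran from -2.09 (GLUD1, SE 0.58) to -1.18 (D2HGDH, SE 0.40), around a median of -1.29 for all expressed genes. No member was higher at an unadjusted p under 0.05, nor called higher by edgeR or DESeq2. The count of 6 came to 1 without EV-Dox replicate 3 and to 0 without EV-Veh replicate 2. Scaled on expressed genes, 3 members were called lower, against 5.75% of all genes and 17.5% of expressed genes: IDH3A by -0.38, IDH3B by -0.64 and GLUD1 by -0.80 (limma adjusted p = 0.0261, 0.00278 and 0.016). OGDH was called higher by 0.47 (limma adjusted p = 0.0325), against 44.1% of all genes and 20.9% of expressed genes. The OGDH call was lost without any 1 of EV-Dox replicates 1 and 2 and EV-Veh replicates 1, 2 and 3 and the GLUD1 call without EV-Dox replicate 3 or EV-Veh replicate 2. The IDH3A call was lost without EV-Dox replicate 1 or 2 or EV-Veh replicate 2 or 3, and the IDH3B call stood without each of the 12 libraries in turn. With the replicate number as a block, IDH3G was called lower as well, by -0.33 (limma adjusted p = 0.0289, against 0.153 without the block). In TFEB-Veh against EV-Veh 0 of 7 members were called in either direction on both scales by limma, 0 had an unadjusted p under 0.05, and edgeR and DESeq2 called 0, against 0% of all genes.

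In TFEB-Dox against EV-Veh limma called 0 of 7 members in either direction on the deposited scale, against 12.2% of all genes higher and 8.51% lower and 17.6% and 9.99% of expressed genes. At an unadjusted p under 0.05 it had 0 higher and 1 lower, edgeR called 2 higher and 1 lower, and DESeq2 1 higher and 1 lower. It called IDH3A and OGDH higher and GLUD1 and D2HGDH lower on the expressed-gene scale, against 15.9% and 16.2% of all genes and 34.6% and 33.3% of expressed genes. In TFEB-Dox against EV-Dox it called 5 of 7 higher (IDH3A, IDH3B, OGDH, DLST and GLUD1) and 0 lower on the deposited scale, against 27.2% and 5.37% of all genes and 55.8% and 0.686% of expressed genes. No member was lower there at an unadjusted p under 0.05 or by edgeR or DESeq2. Without EV-Dox replicate 3, or without TFEB-Dox replicate 2, the count of 5 came to 3. IDH3A, IDH3B and DLST were called higher and D2HGDH lower on the expressed-gene scale, against 14.2% and 57.6% of all genes and 36.4% and 35.4% of expressed genes, so 3 of 7 higher was near the share of expressed genes.

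The difference between the 2 responses to doxycycline, TFEB line minus empty-vector line, was tested as an interaction. On the deposited scale 6 of 7 members were called higher, all but D2HGDH, and 0 lower, against 29.2% and 6.15% of all genes and 62.6% and 0.0686% of expressed genes. No member was lower at an unadjusted p under 0.05 or by edgeR or DESeq2, and the median of expressed genes was itself 2.04. Scaled on expressed genes, IDH3A (1.07, SE 0.18, limma adjusted p = 0.000221) and IDH3B (0.75, SE 0.17, limma adjusted p = 0.00301) were called higher, against 11% of all genes and 31.1% of expressed genes. D2HGDH was called lower there (-1.18, SE 0.24, limma adjusted p = 0.00121), against 57.8% and 29.9%, yet it lay above the median of -1.67 over all genes tested. These 3 calls stood without each of the 12 libraries in turn. OGDH had 0.36 (95% interval -0.14 to 0.85, limma adjusted p = 0.179), so a difference between its 2 responses was not shown on that scale.

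Ratios of 2 members within a library do not depend on the scaling between libraries, and 7 were computed. The ratio of IDH3A to IDH3B was 1.08, 1.01 and 1.12 in TFEB-Dox, 0.795, 0.676 and 0.694 in TFEB-Veh, 0.694, 0.796 and 0.977 in EV-Dox and 0.669, 0.624 and 0.758 in EV-Veh. The ratio of IDH3A to IDH3G averaged 2.36 ± 0.196 in TFEB-Dox, 1.13 ± 0.345 in TFEB-Veh, 1.12 ± 0.463 in EV-Dox and 1.12 ± 0.313 in EV-Veh (SD, n = 3 each). Replicate 3 had the highest ratio of IDH3A to IDH3G in each group, at 2.54, 1.53, 1.65 and 1.48 in the same order. In both ratios, the 3 TFEB-Dox libraries lay above all 9 controls. The exact two-sided permutation test of TFEB-Dox against the 9 controls gave p = 0.00909 for each, the smallest it can give, and 0.0212 adjusted over the 7 ratios, taking the 3 control groups as 1. The permutation took no account of replicate number. The log2 differences were 0.54 and 1.12. The ratio of D2HGDH to DLST was 0.225, 0.269 and 0.244 in TFEB-Dox, 0.790, 0.504 and 0.523 in TFEB-Veh, 0.674, 0.671 and 0.716 in EV-Dox and 0.512, 0.475 and 0.635 in EV-Veh. It was lower in TFEB-Dox than in any control, with a log2 difference of -1.29 (exact permutation p = 0.00909, adjusted 0.0212). IDH3B to IDH3G averaged 2.20 ± 0.194 in TFEB-Dox, 1.59 ± 0.538 in TFEB-Veh, 1.32 ± 0.313 in EV-Dox and 1.62 ± 0.293 in EV-Veh (SD, n = 3 each), with overlap (exact permutation p = 0.0182, adjusted 0.0318). With any 1 TFEB-Dox replicate left out the log2 differences stayed at 0.50 to 0.58 for IDH3A to IDH3B, 1.06 to 1.18 for IDH3A to IDH3G, -1.36 to -1.23 for D2HGDH to DLST and 0.53 to 0.65 for IDH3B to IDH3G. The adjusted exact permutation p, 0.0636 to 0.127, then came from a smaller design of 2 libraries against 9. Within any pair of groups, 3 libraries against 3 cannot give an exact p below 0.1.

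In 2 ratios of OGDH to other members the doxycycline groups stood apart from their vehicle groups, without a test that passed. OGDH to DLST was 2.16 ± 0.526 in TFEB-Dox and 1.36 ± 0.165 in TFEB-Veh, and 2.20 ± 0.229 in EV-Dox and 1.34 ± 0.180 in EV-Veh (SD, n = 3 each). GLUD1 to OGDH was 1.501 ± 0.554 in TFEB-Dox and 3.43 ± 0.182 in TFEB-Veh, and 1.59 ± 0.322 in EV-Dox and 3.81 ± 0.576 in EV-Veh (SD, n = 3 each). In both ratios each doxycycline group was clear of its own vehicle group (exact permutation p = 0.1 each, the smallest possible, adjusted 0.14 in the TFEB line and 0.175 in the empty-vector line). TFEB-Dox overlapped EV-Dox in both, with log2 differences of -0.05 and -0.13 (exact permutation p = 0.8 and 0.9). IDH3A to OGDH was 1.28 ± 0.293 in TFEB-Dox, 1.40 ± 0.275 in TFEB-Veh, 0.812 ± 0.236 in EV-Dox and 1.44 ± 0.253 in EV-Veh (SD, n = 3 each). EV-Dox was below EV-Veh without overlap in that ratio (exact permutation p = 0.1), while TFEB-Dox overlapped TFEB-Veh (exact permutation p = 0.6).

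**Figure D3:**
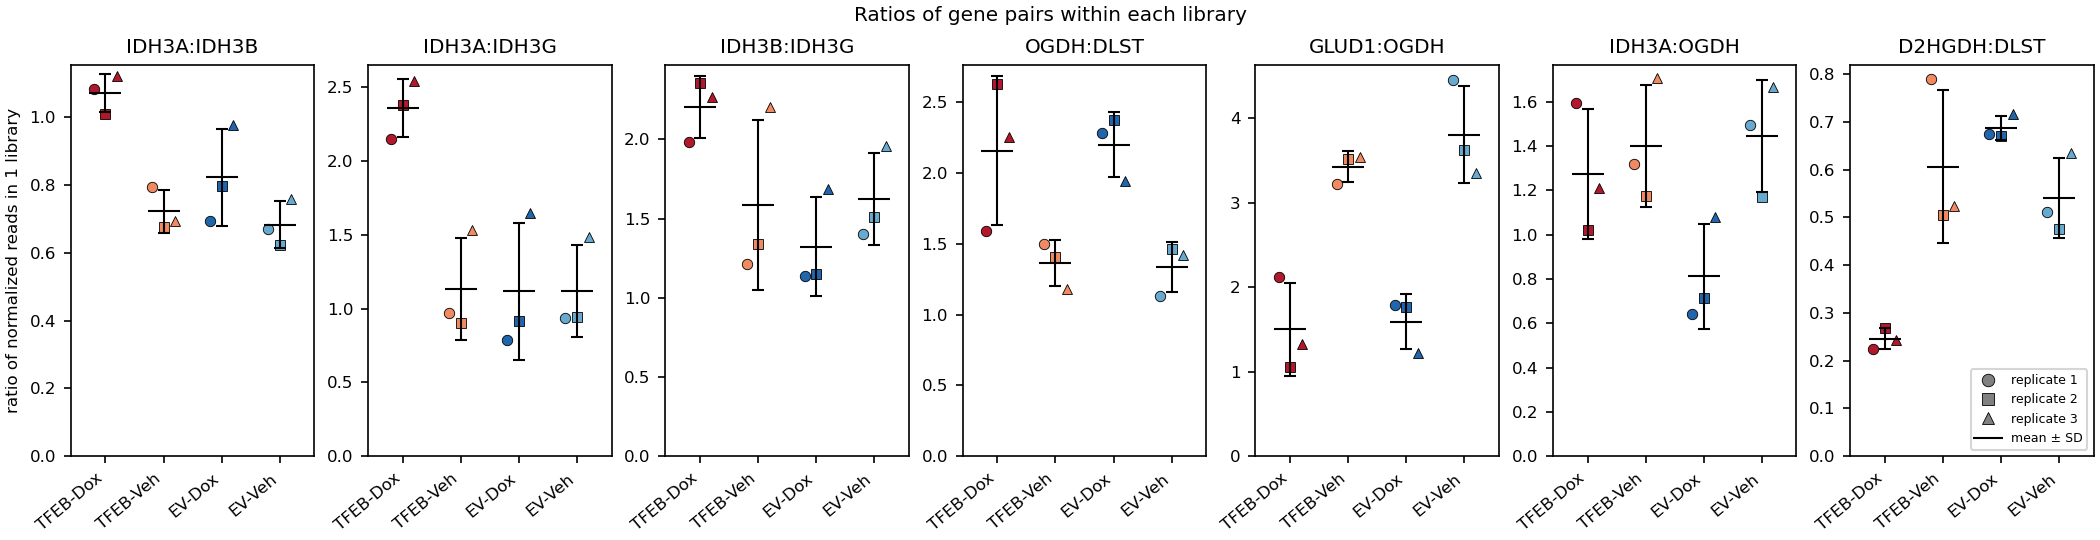
Within-library ratios of members in the 12 libraries by group, on axes that start at 0, with the mean and SD of each group (bars) and 1 symbol per replicate. IDH3A to IDH3B, IDH3A to IDH3G and D2HGDH to DLST set the 3 TFEB-Dox libraries apart from all 9 controls, while OGDH to DLST and GLUD1 to OGDH set both doxycycline groups apart from their vehicle groups.

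As a description over the 12 libraries on the expressed-gene scale, which share groups, depth and scaling, IDH3A ran opposite to D2HGDH (Pearson r = -0.90) and OGDH also ran opposite to D2HGDH (r = -0.68). IDH3G ran with GLUD1 (r = 0.87) and IDH3B with DLST (r = 0.81), whereas IDH3A and IDH3G had r = -0.45. Of 7312 other genes with a mean of at least 200, CUL4A (r = 0.984), MDN1 (0.982) and NMD3 (0.98) had the profiles most like IDH3A, and ABCE1 (0.969), TFRC (0.961) and NOLC1 (0.953) those most like IDH3B. PRKCD (0.964), SLC25A36 (0.948) and RHOBTB2 (0.942) were nearest to OGDH. TRAF7, ELOVL5 and SERP1 were nearest to IDH3G (0.956 to 0.96), API5, TAF9 and NELFE to DLST (0.908 to 0.926), and ELAVL1, TOMM20 and SERP1 to GLUD1 (0.962 to 0.971). PLK1S1 (0.983), SLCO3A1 (0.98) and DAGLB (0.979) were nearest to D2HGDH, among 7313 genes.

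The 53 other genes of the pathway fall into 7 lists, and each is counted in TFEB-Dox against TFEB-Veh. Their medians are read against 0.73 for all expressed genes on the deposited scale and -0.02 on the expressed-gene scale, and their calls on the expressed-gene scale against 34.4% of expressed genes higher and 33.2% lower. Among 5 citrate and isocitrate enzymes 3 rose under every scaling. IDH1, the NADP-dependent dehydrogenase of the cytosol, was at 1679.7, 4459.7 and 3579 normalized reads in TFEB-Dox and 184, 382 and 423 in TFEB-Veh (log2 change 3.27, SE 0.50, limma adjusted p = 1.47e-06). Its lowest TFEB-Dox library was above its highest TFEB-Veh library. ACO1, the cytosolic aconitase, which turns citrate into isocitrate, rose too (2.39, SE 0.38, limma adjusted p = 2.69e-06). IDH2, the mitochondrial NADP-dependent enzyme, had -0.35 on the deposited scale (limma adjusted p = 0.711) and was called lower on the expressed-gene scale, at -1.10 (limma adjusted p = 0.00374). In EV-Dox against EV-Veh, IDH1 had -1.22 on the deposited scale and 0.07 on the expressed-gene scale, called on neither (limma adjusted p = 0.0618 and 0.805).

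Of 12 glutamine and glutamate genes, 3 rose under every scaling, with a list median of 0.47 on the deposited scale, below that of all expressed genes, and 2 called lower on the expressed-gene scale. GOT1, the cytosolic aspartate aminotransferase, averaged 1959.9 ± 597 normalized reads in TFEB-Dox and 289 ± 77.1 in TFEB-Veh (SD, n = 3 each), a log2 change of 2.75 (limma adjusted p = 1.81e-05). BCAT1, the cytosolic branched-chain aminotransferase, which consumes 2-oxoglutarate, averaged 8829 ± 1546 in TFEB-Dox and 2209 ± 686 in TFEB-Veh (2.04, limma adjusted p = 0.00816). GPT and GPT2, the alanine aminotransferases, were called lower on the expressed-gene scale (-1.81 and -0.77, limma adjusted p = 0.0369 and 0.000978), GPT at a mean of only 10.1 normalized reads.

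Of 4 genes listed beside the 2-oxoglutarate dehydrogenase complex, not all of them its subunits, MRPS36 was called higher on the deposited scale and not on the expressed-gene scale. MRPS36, a small subunit of the complex, averaged 71.3 ± 22.1 normalized reads in TFEB-Dox and 36.1 ± 13.5 in TFEB-Veh, with 0.98 (limma adjusted p = 0.0227) on the deposited scale and 0.24 (limma adjusted p = 0.603) on the expressed-gene scale. DLD, the lipoamide dehydrogenase subunit, had 1.19 on the deposited scale (limma adjusted p = 0.0777) and was called higher on the expressed-gene scale at 0.44 (limma adjusted p = 0.00893). DHTKD1, the dehydrogenase of 2-oxoadipate, had -0.76 on the deposited scale (limma adjusted p = 0.147) and was called lower on the expressed-gene scale at -1.50 (limma adjusted p = 1.39e-05), and the list's median was 0.57 on the deposited scale and -0.17 on the expressed-gene scale. Among 3 other enzymes of 2-hydroxyglutarate, PHGDH, a serine synthesis enzyme that can also make the D form, averaged 1927 ± 502 in TFEB-Dox and 1257 ± 456 in TFEB-Veh (SD, n = 3 each), with 0.66 (limma adjusted p = 0.437). ADHFE1 makes the D form from 2-oxoglutarate while it oxidizes 4-hydroxybutyrate. It had -0.56 and -1.25 on the 2 scales and was called on neither (limma adjusted p = 0.325 and 0.133).

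Of 9 genes of the later cycle, 2 were called higher on the deposited scale. SDHB, the iron-sulfur subunit of succinate dehydrogenase, averaged 3325 ± 708 normalized reads in TFEB-Dox and 415 ± 163 in TFEB-Veh (log2 change 3.07, limma adjusted p = 6.62e-06) and rose under every scaling. SDHC, a membrane anchor subunit, had 1.32 (limma adjusted p = 0.0334). SDHA, the flavoprotein subunit, and FH, the fumarase, were called lower on the expressed-gene scale, at -0.68 and -1.16 (limma adjusted p = 0.000976 and 7.92e-06). Of 10 mitochondrial carriers 3 rose under every scaling: SLC25A22, a glutamate carrier (4.51, limma adjusted p = 1.83e-11), SLC25A13, an aspartate-glutamate carrier (2.51, limma adjusted p = 3.93e-06), and MPC2, a pyruvate carrier subunit (1.45, limma adjusted p = 0.00673). SLC25A10, SLC25A1 and SLC25A12, the dicarboxylate, citrate and aspartate-glutamate carriers, and MPC1, the other pyruvate carrier subunit, were called lower on the expressed-gene scale, at -1.33, -1.19, -1.35 and -1.02 (limma adjusted p = 0.00402, 0.000234, 0.000233 and 0.00107), and the list's median was -0.18 on the deposited scale and -0.91 on the expressed-gene scale, below that of all expressed genes on both. Of 10 genes of the pyruvate dehydrogenase complex and its regulators 3 rose under every scaling: the phosphatases PDP1 (3.30, limma adjusted p = 9.44e-09) and PDP2 (2.12, limma adjusted p = 0.000119) and the kinase PDK3 (1.95, limma adjusted p = 0.0029). On the expressed-gene scale 5 of these 10 were called higher (0.33 to 2.55, with PDHX and PDK1 besides those 3) and 3 lower, PDHA1 (-0.48), DLAT (-0.99) and PDK2 (-1.30; limma adjusted p = 0.0125, 3.57e-05 and 0.0125), with a median of 0.11 there and 0.86 on the deposited scale.

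**Figure D4:**
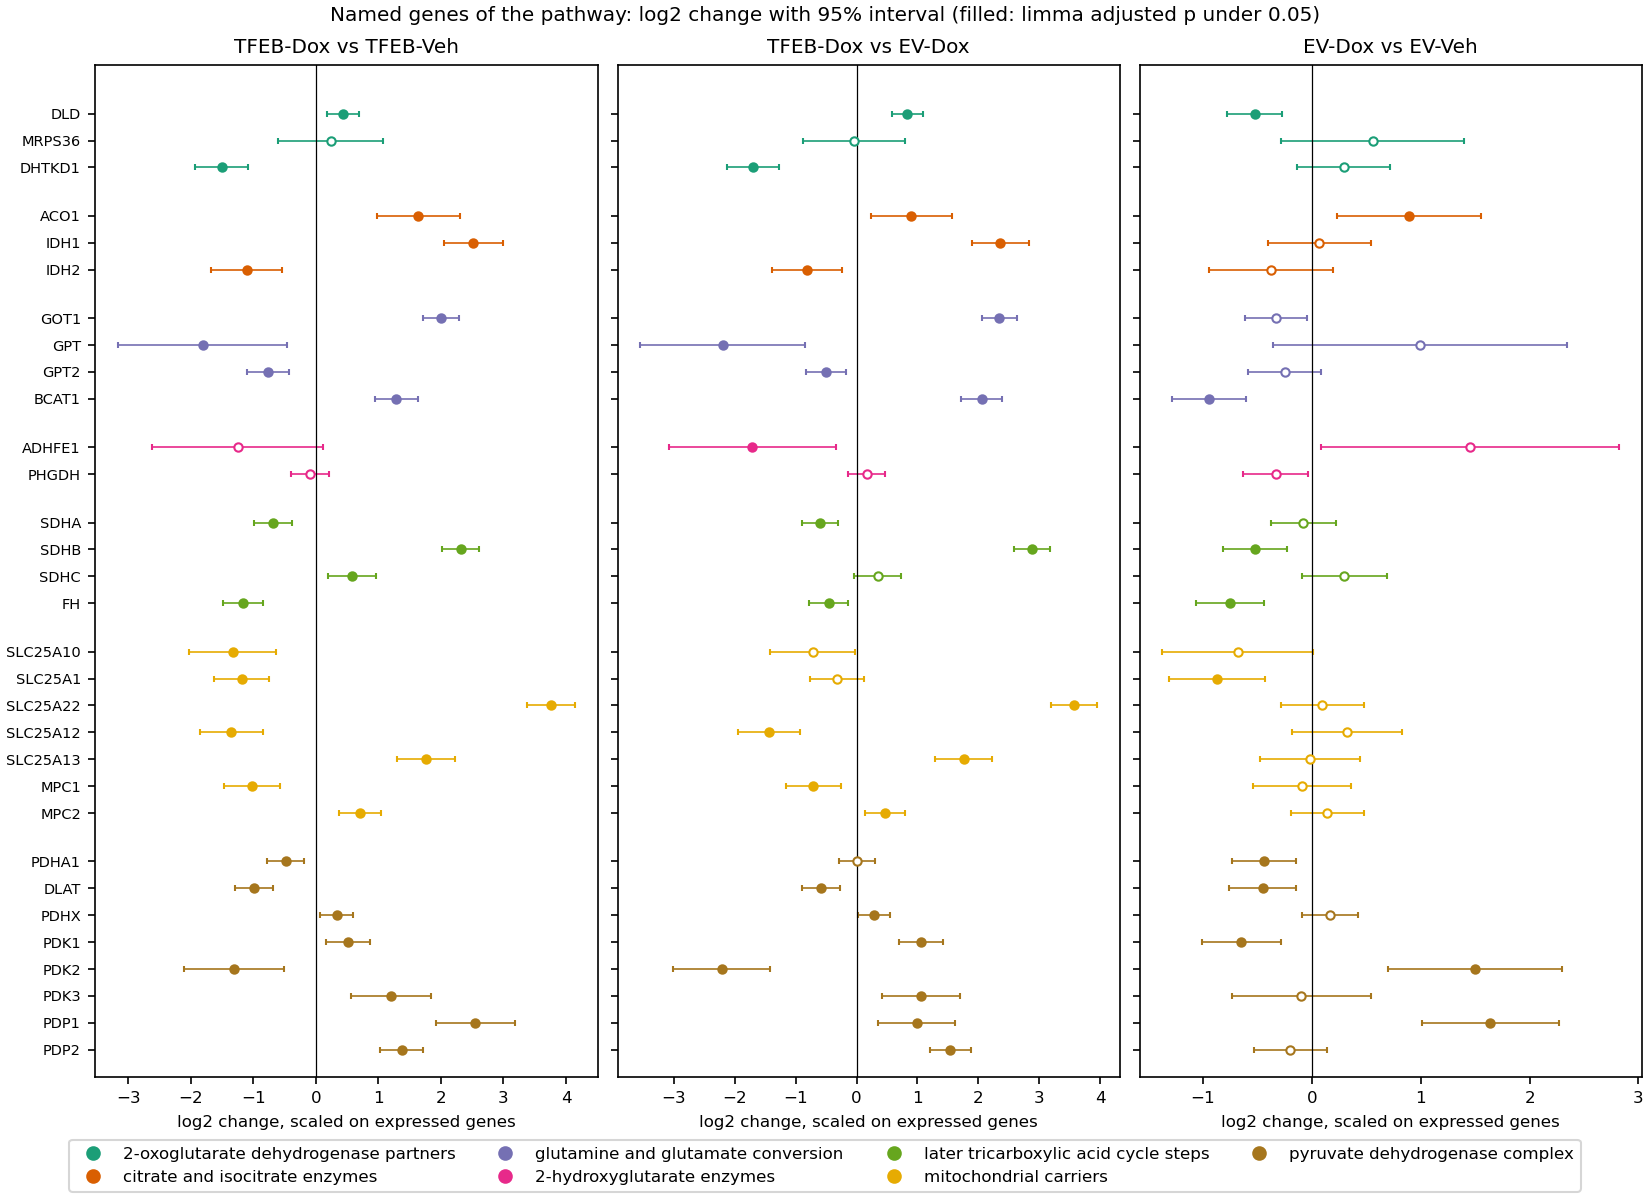
Log2 change with its 95% interval of the 31 other pathway genes named in the text on the expressed-gene scale, coloured by list and filled where called by limma, in TFEB-Dox against TFEB-Veh, TFEB-Dox against EV-Dox and EV-Dox against EV-Veh. In the first panel SLC25A22 (3.76), PDP1 (2.55), IDH1 (2.52) and SDHB (2.32) lie farthest above 0, beyond IDH3A (0.68) and OGDH (0.83), and called genes lie on both sides of 0.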

How the data were processed

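Total RNA of 12 HL60 samples, 3 in each of 4 groups, was isolated with a NucleoSpin kit and sequenced from NuGEN Ovation Human RNA-Seq FFPE libraries, per the labels' protocols. STAR 2.5.3a and HTSeq 0.6.1 are named in the submitters' processing notes. No source used here states the genome build, the annotation release or the strand setting, so genes with antisense partners or near-identical copies are uncertain. The deposited table holds 1 normalized signal per gene and library. The values show that the authors divided reads by 1 factor per library, since 100% of values were whole multiples of 1 step within 0.01. In EV-Veh replicate 2 and TFEB-Veh replicate 3 that step lay within 1% of 1, so recovered reads and rounded values look alike. Replicates of a group differed by more than sampling noise in all 12 pairs (chi-square of 8.38 to 26.8 per degree of freedom), so none was merged. The 7 members, the lists and the tests were chosen with earlier results of these data known.

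Testing used the 23128 of 57820 genes with a mean of at least 10. Their log2(value + 1) was fitted in limma 3.58.1 (R 4.3.3) with 1 mean per group over all 12 libraries, and variance was allowed to follow the mean. Tests were two-sided, and a gene was called at an adjusted p (Benjamini-Hochberg over all genes tested) under 0.05. Changes are on the log2(value + 1) scale, which understates those of low genes. The expressed-gene scale divides each library by its median ratio over nuclear genes averaging 200 or more, and was taken up after earlier results were known. Genes were named by 1 rule: the 7 members whatever their result, TFEB, up to 3 called genes per list with the largest change against TFEB-Veh (or the 1 with the highest mean), and the 3 nearest profiles per member. DLD, DHTKD1, IDH2, GPT, GPT2, SDHA, FH, ADHFE1, SLC25A10, SLC25A1, SLC25A12, MPC1, PDHX, PDK1, PDHA1, DLAT and PDK2 were named after their values were seen, and some genes that the rule names are not reported here. Of symbols with 2 entries (SDHD, SLC25A10) the one with the higher mean was used. Ratio tests compared log2 of (value + 1)/(value + 1) by exact permutation of libraries.

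Replicate numbers were checked for pairing by the correlation of same-numbered deviations from group means. All 3 pairs exceeded 0.1 for EV-Dox with EV-Veh (0.208 to 0.72) and for TFEB-Veh with EV-Veh (0.457 to 0.626). In the former 4 of 6 libraries correlated best with their own number and in the latter 6 of 6, so pairing was clear only in the latter. The main fit took no account of pairing. Alternatives covered the pseudocount, the filter, 4 other scalings, the variance trend, a fit restricted to the groups compared, the replicate block, single libraries left out, and the read counts recovered from the deposited values in edgeR 4.0.16 and DESeq2 1.42.0. Leaving out libraries on the expressed-gene scale was added after the data were seen. The fit was tested on simulated data that held no shift of expressed genes between groups, so that test does not bear on the choice of scale.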

Additional observations from a re-analysis of the deposited data

Results flagged for a closer look

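Members are listed here because their response to doxycycline differed between the TFEB line and the empty-vector line by a test of the difference itself. On the deposited scale this interaction was 3.10 for IDH3A, 2.79 for IDH3B, 1.96 for IDH3G, 2.39 for OGDH, 2.47 for DLST and 2.41 for GLUD1 (log2, TFEB line minus empty-vector line). The median over expressed genes was 2.04 in the same test, so IDH3G lay below it. On the expressed-gene scale the difference was 1.07 for IDH3A, 0.75 for IDH3B and -1.18 for D2HGDH. The median there was 0.0066 over expressed genes and -1.67 over all genes tested, so D2HGDH lay between these medians. IDH3A had 0.68 in TFEB-Dox against TFEB-Veh and -0.38 in EV-Dox against EV-Veh on that scale, IDH3B had 0.11 and -0.64, and D2HGDH had -1.08 and 0.10.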

How the results depend on the processing

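Scaling changed the counts of members most. In TFEB-Dox against TFEB-Veh, 1 member was called lower after scaling to equal totals, equal upper quartiles or expressed genes, against 0 on the deposited scale. In TFEB-Dox against EV-Dox these 3 scalings also gave 1 lower, and totals gave 2 and expressed genes 3 higher, against 5. In TFEB-Dox against EV-Veh they gave 2 higher each and 3, 1 and 2 lower, edgeR 2 higher and 1 lower, and DESeq2 1 and 1, against 0 and 0. In EV-Dox against EV-Veh expressed-gene scaling gave 1 higher and 3 lower, against 0 and 6. In the interaction totals gave 2, upper quartiles 3 and expressed genes 2 higher and each gave 1 lower, against 6 and 0. With no filter on low values the members called were 0, 2, 0 and 2 in TFEB-Dox against TFEB-Veh, TFEB-Dox against EV-Dox, EV-Dox against EV-Veh (lower) and the interaction, and a fit of the compared groups alone gave 0 lower in EV-Dox against EV-Veh. That restricted fit gave 3 higher in TFEB-Dox against TFEB-Veh (DLST added), where it called 5449 of all 23128 genes higher.

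Signs turned with the scaling for members near the shift of expressed genes. With totals, upper quartiles and expressed genes in that order, IDH3G in TFEB-Dox against TFEB-Veh was at -0.52, -0.36 and -0.41, GLUD1 at -0.54, -0.38 and -0.43, D2HGDH in TFEB-Dox against EV-Dox at -1.15, -0.86 and -1.09, IDH3B in TFEB-Dox against EV-Veh at -0.25, -0.042 and -0.030, OGDH in EV-Dox against EV-Veh at 0.31, 0.23 and 0.47, and D2HGDH in the interaction at -1.13, -0.89 and -1.18. IDH3G was at -0.21 and -0.15 with totals and expressed genes in TFEB-Dox against EV-Dox and at -0.027 and -0.074 in the interaction. DLST was at -0.080 with totals in TFEB-Dox against EV-Veh. D2HGDH was at 0.10 with expressed genes in EV-Dox against EV-Veh, and at 0.035 with upper quartiles and 0.094 with expressed genes in TFEB-Veh against EV-Veh. D2HGDH in TFEB-Dox against EV-Dox was at -0.19 by edgeR and -0.0385 by DESeq2, and in the interaction at -0.060 by edgeR.

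Leaving out 1 library at a time on the deposited scale gave 0 to 2 members higher in TFEB-Dox against TFEB-Veh, 3 to 6 in TFEB-Dox against EV-Dox and 3 to 6 in the interaction, and 0 to 6 lower in EV-Dox against EV-Veh and 0 to 1 in TFEB-Dox against EV-Veh. The count of 3 in the interaction came without TFEB-Dox replicate 2, and the count of 1 lower against EV-Veh (D2HGDH) without EV-Dox replicate 3. On the expressed-gene scale it gave 1 to 3 lower in TFEB-Dox against TFEB-Veh, 1 to 3 in TFEB-Dox against EV-Veh and 1 to 3 in EV-Dox against EV-Veh, and 0 to 1 higher there. The 3 lower against TFEB-Veh came without EV-Dox replicate 3. Log2 changes that crossed 0 were, on the deposited scale, D2HGDH in TFEB-Dox against EV-Dox (-0.16 to 0.63) and, in TFEB-Dox against EV-Veh, DLST (-0.10 to 0.60), IDH3B (-0.19 to 0.42) and IDH3G (-0.78 to 0.0093). On the expressed-gene scale they were IDH3B in TFEB-Dox against TFEB-Veh (-0.0064 to 0.22) and against EV-Veh (-0.062 to 0.016), GLUD1 in TFEB-Dox against EV-Dox (-0.11 to 0.37), IDH3G in the interaction (-0.30 to 0.080, above 0 also at 0.040, 0.046 and 0.036 without TFEB-Veh replicate 2, EV-Dox replicate 1 and EV-Dox replicate 2) and, in TFEB-Veh against EV-Veh, IDH3A (-0.14 to 0.0013), IDH3G (-0.23 to 0.087), OGDH (-0.11 to 0.085, and 0.057 without TFEB-Veh replicate 3), DLST (-0.14 to 0.038, and 0.012 without EV-Veh replicate 1) and D2HGDH (-0.026 to 0.16). Log2 ratio differences that crossed 0 were GLUD1 to OGDH (-0.41 to 0.10) and OGDH to DLST (-0.21 to 0.16) in TFEB-Dox against EV-Dox, IDH3A to IDH3G in EV-Dox against EV-Veh (-0.36 to 0.17), and IDH3A to OGDH in TFEB-Dox against TFEB-Veh (-0.32 to 0.010) and against the 9 controls (-0.062 to 0.26).

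With the replicate number as a block the members called lower in TFEB-Dox against TFEB-Veh were 3 on the expressed-gene scale (IDH3G and GLUD1 added), against 1. There it also added OGDH against EV-Dox, IDH3G against EV-Veh and DLST in the interaction, and on the deposited scale IDH3G against EV-Dox (6 higher, against 5). For TFEB-Dox with the other groups pairing was not shown, with 2 of 3 pairs over 0.1 and 3 or 4 of 6 libraries correlating best with their own number. The block changed no call in TFEB-Veh against EV-Veh. Over all genes in TFEB-Dox against TFEB-Veh, limma called 4032 higher and 1077 lower and edgeR 4489 and 2196. By limma, edgeR and DESeq2 in that order, the genes lower in TFEB-Dox against EV-Dox were 1242, 3798 and 2719, those higher in TFEB-Dox against EV-Veh 2821, 4315 and 3581, those higher in EV-Dox against EV-Veh 783, 3859 and 2288 and lower 5396, 3372 and 5291, and those lower in the interaction 1422, 5641 and 3297. The cause of these changes was not tested. The members' SEs in pairwise comparisons were 0.40 to 0.58 on the deposited scale and 0.12 to 0.22 on the expressed-gene scale. D2HGDH had the fewest reads of the members, 73 in 1 library.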
